A study of Homo sapiens with 6 samples.

Results

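Methylglyoxal and sorbitol are reactive or osmotically active products of glucose, and 8 enzymes that handle them were examined in HK-2 cells after INO80 knockdown. HK-2 is an immortalized line of human proximal tubular cells. The enzymes are GLO1, HAGH, PARK7, AKR1A1, AKR1B1, AKR1B10, SORD and KHK, taken by gene symbol from a table of 57905 genes, and all 8 were found. The set was chosen on the counts of these same libraries: GLO1 was picked for its lower count under INO80 siRNA, and the other enzymes were set beside it by function. The difference between the groups is therefore given for these genes as a description, with a standard error and no p-value.

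The data are RNA-seq of poly(A)-selected RNA from 6 libraries, and the comparison asks which transcripts differ once INO80, the ATPase of a chromatin remodeling complex, is reduced. In 3 libraries the cells, labelled wild type, received a non-targeting pool of siRNAs (control siRNA), and in 3 they received a pool against INO80 (INO80 siRNA). All were transfected with RNAiMAX and harvested after 48 h, and a single pool stood for each condition. The labels number the replicates 1 to 3 in each group, and nothing says that they came from separate cultures, so that p-values measure only the spread between these samples, which may be technical.

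Methylglyoxal is a dicarbonyl that forms from the triose phosphates of glycolysis and attacks arginine and lysine side chains, giving advanced glycation end products. It is removed mainly by the glyoxalase system, in which GLO1 converts its adduct with glutathione and HAGH releases D-lactate and returns the glutathione, while aldo-keto reductases take up part of the load. In the polyol pathway AKR1B1 (aldose reductase) reduces glucose to sorbitol, SORD oxidises sorbitol to fructose, and KHK phosphorylates fructose; in the kidney sorbitol also serves as an osmolyte.

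Between 16829273 and 20311588 reads were counted on genes per control siRNA library, and between 20678008 and 23784599 per INO80 siRNA library. Every INO80 siRNA library was deeper than any control siRNA library, so raw counts are not on 1 scale between the groups. INO80 (ENSG00000128908) was at 46.3, 49.3 and 54.0 CPM in replicates 1, 2 and 3 of control siRNA, where CPM is the count relative to the TMM-scaled library size. It was at 13.8, 12.0 and 14.2 CPM under INO80 siRNA, and edgeR gave a log2 fold change of -1.90 ± 0.0956 (standard error) with an adjusted p of 0.000161. On the first principal component, with 41.8% of the variance, replicate 1 of both groups stood apart at -18.3 and -14.9, with the other libraries between 5.61 and 10.5. The second, with 29.7%, separated the groups. Control siRNA libraries lay between -11.7 and -8.76 and INO80 siRNA libraries between 6.84 and 12.4. Of 8 proximal tubule markers only GGT1 reached a mean FPKM of 1 (the count relative to exonic length and library size), and LRP2 and SLC22A6 were listed at 0 in every library. Of 5 epithelial genes KRT8, KRT18, KRT19 and EPCAM were present, and CDH1 was at 0 to 0.08 FPKM. The mesenchymal genes VIM, CDH2 and FN1 were also present, at 226.89 to 272.41, 66.22 to 85.35 and 1075.62 to 1961.33 FPKM. Of the endothelial, leukocyte, podocyte and collecting duct markers, VWF, PTPRC, NPHS1 and AQP2 were at 0 in every library. The highest of these markers, PODXL, reached 0.71 FPKM.

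The sequence upstream of GLO1 is shown because GLO1 is the enzyme whose groups separated. That of PARK7 is shown because, of the 5 enzymes with a promoter, only PARK7 carried TGACNNNGC, the searched core of the antioxidant response element. Both are the 250 bases before the RefSeq start in GRCh38.p14, written 5′ to 3′ on the strand of the gene. The GLO1 stretch is chr6:38703146-38703395 and the PARK7 stretch is chr1:7961461-7961710, on the minus and the plus strand. Capitals mark the AP-1 site TGACTCA in GLO1 and the core TGACNNNGC in PARK7.
GLO1: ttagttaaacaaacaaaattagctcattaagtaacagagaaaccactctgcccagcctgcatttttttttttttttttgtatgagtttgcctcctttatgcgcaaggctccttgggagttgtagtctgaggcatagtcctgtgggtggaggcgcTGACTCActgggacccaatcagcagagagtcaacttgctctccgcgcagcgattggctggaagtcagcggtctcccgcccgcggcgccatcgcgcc
PARK7: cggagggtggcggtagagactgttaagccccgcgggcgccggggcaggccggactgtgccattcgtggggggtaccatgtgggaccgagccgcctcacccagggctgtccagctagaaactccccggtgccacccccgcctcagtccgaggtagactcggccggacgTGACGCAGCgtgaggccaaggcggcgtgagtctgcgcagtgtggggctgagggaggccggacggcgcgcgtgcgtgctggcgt

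RefSeq promoters of 300 bases (250 before the start and the first bases after it) were found for 5 of the 8 enzymes, GLO1, HAGH, PARK7, AKR1A1 and AKR1B1, and not for AKR1B10, SORD and KHK. Both strands were searched. The core TGACNNNGC, to which the stress factor NRF2 binds with a small MAF partner, was present in PARK7, where it begins 83 bases before the start, and in 13.3% of all 35116 promoters. The TATA box motif TATAAA was in 0 of the 5 and in 11.5% of all promoters. The AP-1 site, searched after the sequences had been seen, begins 96 bases before the start of GLO1 and occurs in 4.95% of all promoters. Its letters can form part of the core TGACNNNGC, and the match in GLO1 does not. A core that begins TGAG in place of TGAC was not searched, and the opposite strand of GLO1 reads so at this site. The GC content was 52.7% in the GLO1 window and 70.3% in that of PARK7, against a median of 58.7% over all promoters. Such matches describe letters and not binding.

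AKR1B1 had by far the highest level of the 8 enzymes per exonic length. Under control siRNA it was at 383.42, 414.07 and 289.00 FPKM in replicates 1, 2 and 3. GLO1 followed at 98.40, 109.39 and 116.79 FPKM, and PARK7 at 85.94, 98.67 and 93.33 FPKM. The ranges of these last 2 met, so their order was not separated by the spread. AKR1A1 was at 15.66 to 18.47 FPKM, SORD at 4.98 to 5.54 FPKM and HAGH at 2.99 to 3.69 FPKM, each below the one before without overlap. KHK, at 1.01 to 1.09 FPKM, lay inside the range of AKR1B10, at 0.55 to 1.5 FPKM. AKR1B1 made up 54.9% to 64.3% of the summed FPKM of the 8 genes in the control siRNA libraries and 55.8% to 66.3% in the INO80 siRNA libraries.

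**Figure D1:**
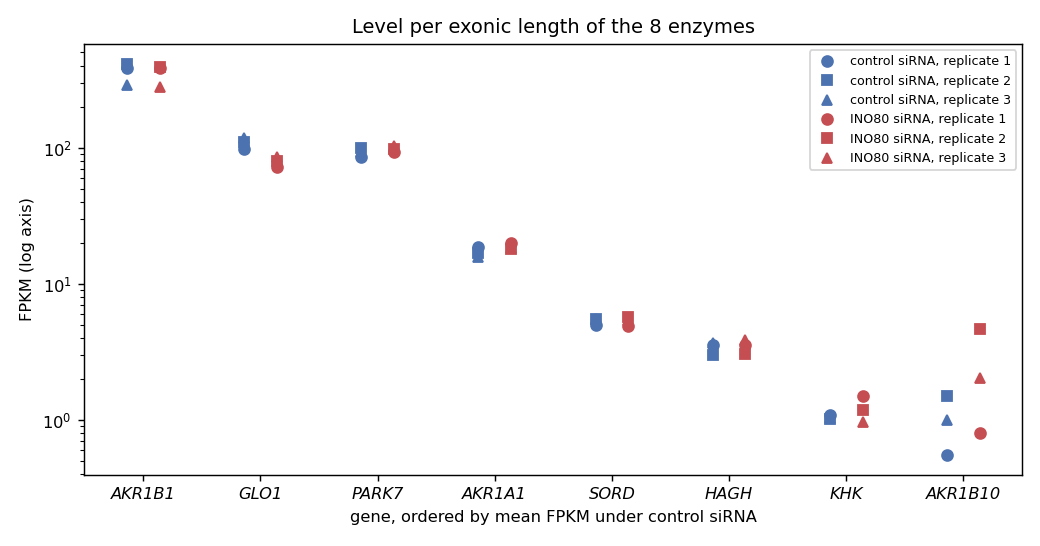
FPKM on a log axis for each enzyme, ordered by its mean under control siRNA (blue), with INO80 siRNA beside it (red); each point is a library and the symbol gives its replicate number. AKR1B1 stands at the top, between 276.31 and 414.07 FPKM, and under INO80 siRNA the GLO1 points (71.74 to 84.89 FPKM) lie below those of PARK7 (92.50 to 102.98 FPKM).

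GLO1, the first enzyme of the glyoxalase system, was lower in every INO80 siRNA library than in any control siRNA library (ENSG00000124767, chromosome 6, 38643701 to 38670917, minus strand, GRCh37 as in the deposited table). Under control siRNA its level was 238, 256 and 273 CPM in replicates 1, 2 and 3. Under INO80 siRNA it was 174, 184 and 196 CPM. The highest INO80 siRNA library stayed below the lowest control siRNA library, and replicate 3 was the highest and replicate 1 the lowest in both groups. The means were 255 ± 17.7 and 185 ± 11.3 CPM (SD, n = 3 each), a ratio of 0.723, and on the log2 scale edgeR gave -0.47 ± 0.0721 (standard error). Between libraries of the same number the log2 ratio was -0.45, -0.47 and -0.48. In bulk RNA, fewer cells with the transcript and less transcript per cell cannot be told apart.

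HAGH, the second glyoxalase, differed between the groups by less than the spread between replicates (ENSG00000063854, chromosome 16, 1845621 to 1877195, minus strand). It was at 18.4, 15.03 and 18.5 CPM under control siRNA and at 18.4, 15.1 and 19.2 CPM under INO80 siRNA. Replicate 2 was the lowest of each group and the groups overlapped. edgeR gave HAGH a log2 fold change of 0.02 ± 0.128 (standard error). HAGH overlaps FAHD1 on the opposite strand, with a mean of 340.5 reads per library against 361 for HAGH, and whether the counting used the strand is not given in the sources used here. The ratio of GLO1 to HAGH in FPKM was 27.7, 36.6 and 31.7 in the control siRNA libraries and 20.3, 26.2 and 21.9 in the INO80 siRNA libraries.

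PARK7, also known as DJ-1, is an oxidative stress protein for which glyoxalase and deglycase activities have been described and debated (ENSG00000116288, chromosome 1, 8014351 to 8045565, plus strand). It was at 211, 235 and 222 CPM under control siRNA and at 228, 229 and 242 CPM under INO80 siRNA. The groups overlapped, and replicate 2 was lower under INO80 siRNA while replicates 1 and 3 were higher. For PARK7 edgeR gave a log2 fold change of 0.07 ± 0.0606 (standard error). In FPKM the ratio of GLO1 to PARK7 was 1.11 to 1.25 in the control siRNA libraries and 0.776 to 0.824 in the INO80 siRNA libraries.

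**Figure D2:**
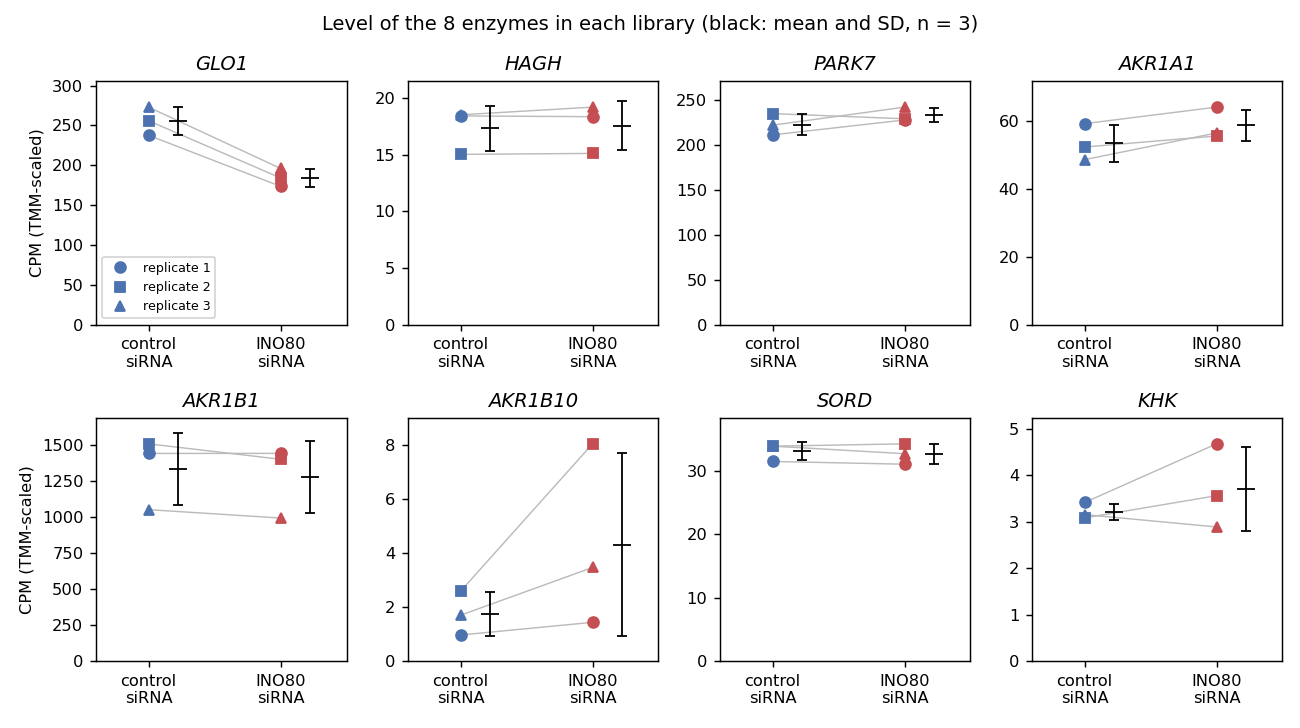
CPM of each enzyme in each library on a linear axis from 0, with control siRNA in blue and INO80 siRNA in red; symbols give the replicate number, grey lines join equal numbers, and black bars give mean and SD (n = 3). In the GLO1 panel the red points (174 to 196 CPM) lie under the blue ones (238 to 273 CPM), and in the other 7 panels the groups overlap.

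AKR1A1, aldehyde reductase, reduces methylglyoxal and many other aldehydes (ENSG00000117448, chromosome 1, 46016215 to 46035721, plus strand). Its control siRNA values were 59.2, 52.3 and 48.6 CPM and its INO80 siRNA values 64.0, 55.5 and 56.4 CPM. Each INO80 siRNA library was higher than the control library of its number, and the groups overlapped because control replicate 1 was above INO80 siRNA replicates 2 and 3. AKR1A1 had a log2 fold change of 0.14, with a standard error of 0.0911, or 0.0505 with the replicate number as a block (edgeR).

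AKR1B10, a reductase of retinal and lipid aldehydes and a known NRF2 target, had the widest spread (ENSG00000198074, chromosome 7, 134212344 to 134226160, plus strand). It was counted 16, 53 and 33 times in control siRNA replicates 1, 2 and 3 and 29, 194 and 84 times under INO80 siRNA. In CPM these are 0.976, 2.59 and 1.71 against 1.44, 8.03 and 3.47. Replicate 2 was the highest and replicate 1 the lowest of each group. Every number was higher under INO80 siRNA, and INO80 siRNA replicate 1 still lay below control replicates 2 and 3. The log2 fold change was 1.28 (standard error 0.583, edgeR), and it was 0.48 without INO80 siRNA replicate 2. NQO1, another NRF2 target, had the same order of replicates, at 52.81, 80.84 and 62.11 FPKM and then 54.74, 93.93 and 70.92 FPKM. HMOX1, listed with NQO1 on the NRF2 axis, went the other way. It was at 37.13, 44.79 and 36.04 FPKM and then 26.22, 30.06 and 27.95 FPKM, with replicate 3 the lowest control library. The relation of either gene to AKR1B10 was not tested.

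AKR1B10 lies in a cluster of related genes, so its sequence was compared with those of its relatives on GENCODE transcripts. Its coding sequence was 76.1% identical to that of AKR1B1, with 22 bases as the longest identical stretch of the transcripts. It was 85.1% identical to AKR1B15, with an identical stretch of 116 bases. AKR1B15 had 1 read in INO80 siRNA replicate 3 and 0 in the other libraries, where a count of 0 allows up to 3 (counting error only). AKR1A1 was more distant, at 58.0% identity to AKR1B1 and 56.8% to AKR1B10. The proteins were not analysed here.

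AKR1B1, the entry to the polyol pathway, differed more between replicates than between groups (ENSG00000085662, chromosome 7, 134127102 to 134144036, minus strand). It was at 1440, 1507 and 1051 CPM under control siRNA and at 1441, 1400 and 993 CPM under INO80 siRNA. Replicate 3 was the lowest of each group. The log2 fold change was -0.06 with a standard error of 0.167, or 0.0310 with the block (edgeR). AKR1B1 made up 93.1% to 95.8% of the summed FPKM of AKR1A1, AKR1B1 and AKR1B10 over the 6 libraries.

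SORD, sorbitol dehydrogenase, was at 31.5, 33.9 and 33.9 CPM under control siRNA and at 31.0, 34.2 and 32.7 CPM under INO80 siRNA (ENSG00000140263, chromosome 15, 45315302 to 45369383, plus strand). The groups overlapped, and the log2 fold change was -0.02 (standard error 0.0739, edgeR). Its pseudogene SORD2P, listed as CTD-2008A1.2, shares an identical stretch of 619 bases with it and was counted 7 to 22 times per library against 516 to 827 for SORD, so the division of reads between them is uncertain.

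KHK, ketohexokinase, was counted between 56 and 94 times per library (ENSG00000138030, chromosome 2, 27309615 to 27323640, plus strand). It was at 3.42, 3.08 and 3.16 CPM under control siRNA and at 4.68, 3.56 and 2.89 CPM under INO80 siRNA. INO80 siRNA replicate 1 was the highest library and INO80 siRNA replicate 3 the lowest, so the groups overlapped. The log2 fold change of 0.20 (standard error 0.213, edgeR) became 0.01 without INO80 siRNA replicate 1. KHK overlaps CGREF1 on the opposite strand, with a mean of 105 reads per library against 71.7 for KHK.

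All 8 enzymes passed the filter on low counts. With an adjusted p under 0.05, GLO1 alone of the 8 was called, where 1.75% of the 15343 tested genes were called and 1.49% were called as lower (edgeR). It was also the 1 enzyme without overlap between the groups, which held for 22.8% of tested genes. Since GLO1 was chosen on this contrast, nothing is read from these counts. With the replicate block 3 of the 8 were called, GLO1 as lower and AKR1A1 and AKR1B10 as higher. Of the 15343 tested genes 24.8% were then called, 11.4% as higher and 2050 genes as lower. Without the block, GLO1 was not called once control siRNA replicate 2 or 3 or INO80 siRNA replicate 2 or 3 was left out, and 0 of 8 were then called, while its log2 fold change lay between -0.52 and -0.42 over the 6 such fits. The median log2 fold change of the 8 was 0.04, against 0.01 over all tested genes.

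**Figure D3:**
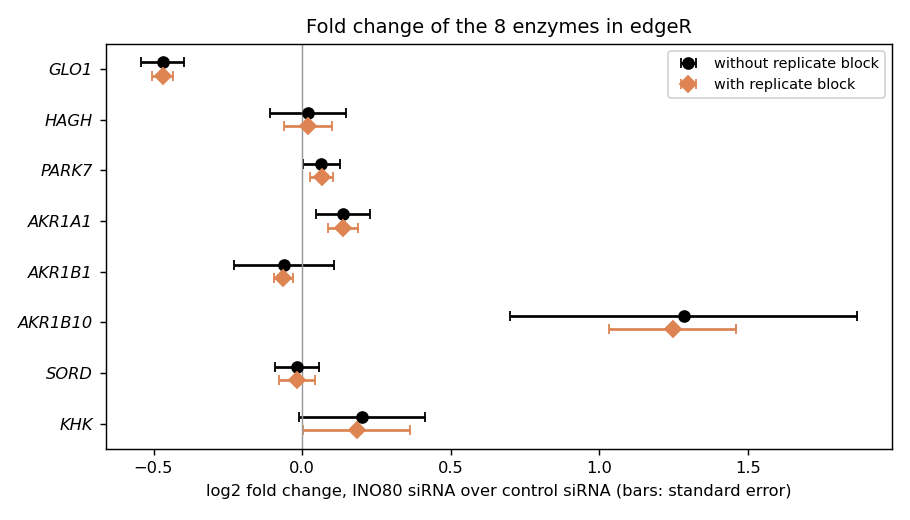
Log2 fold change of each enzyme, INO80 siRNA over control siRNA, from edgeR without (black circles) and with (orange diamonds) the replicate block; bars are standard errors. GLO1 lies at -0.47 in both, AKR1B10 has the longest bars, and the bar of AKR1B1 shrinks from 0.167 to 0.0310 with the block.

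Outside the set, the 5 tested genes whose log2 CPM followed GLO1 most closely over the 6 libraries were TPMT, FOXJ3, GTF2H3, ZCRB1 and TRIM27, with Pearson's r from 0.996 to 0.998. In all, 18 genes had r above 0.99. The 6 points fall in 2 groups and share their libraries, so r only describes the pattern.

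Around the 8 enzymes, 75 genes of the neighbouring pathways were listed by function, and 60 passed the filter. The lists were drawn up with earlier results of these data known, so their counts beside the background are a description. HK2 rose and HMOX1 and FN3KRP fell with an adjusted p under 0.05, so that 3 of 60 were called, beside 1.75% of all tested genes (edgeR). DESeq2 also called 3, beside 610 of the 15343 genes that passed the filter. The same 610 are 2.09% of its 29137 genes, which include those under the filter. With limma 0 were called, beside 0.495% (0.1 added to the FPKM) or 0.521% (1 added). In each list the background is 610 of 15343 for DESeq2 and these shares for limma. In edgeR 10 of the 60 had an unadjusted p under 0.05, as had 2514 of the 15343 tested genes. With the replicate block 23 were called, 16 higher and 7 lower, again beside 24.8% of all tested genes. Of the 15343 tested genes 11.4% were called as higher and 2050 genes as lower. These are the background for the block calls in each list. Without any 1 of the 6 libraries, 0 of the 60 were called, beside 0.115% to 0.932% of all tested genes. The median log2 fold change of the 60 was 0.05.

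FN3KRP, a kinase of the ketosamines on glycated protein, fell under INO80 siRNA. It was at 19.32, 21.92 and 21.15 FPKM in control siRNA replicates 1, 2 and 3 and at 14.91, 16.80 and 17.05 FPKM under INO80 siRNA, without overlap. In edgeR this was a log2 fold change of -0.37 ± 0.0673 (standard error) with an adjusted p of 0.0414. It was the 1 gene called of 8 tested glycation receptors and fructosamine repair genes, whose median was 0.17. DDOST and PRKCSH, enzyme subunits of the endoplasmic reticulum that also bind glycated protein, had the highest FPKM of that list, with log2 fold changes of 0.06 and 0.12 (adjusted p = 0.637 and 0.649, edgeR). With the block PRKCSH and the scavenger receptor SCARB1 were called as higher, with adjusted p of 0.0196 and 0.000414 (edgeR).

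HK2, a hexokinase, which commits glucose to its phosphate, rose from 14.85, 16.48 and 16.15 FPKM to 19.50, 20.26 and 20.84 FPKM. The lowest INO80 siRNA library was above the highest control library. In edgeR the difference was 0.34 ± 0.0553 (log2, standard error) with an adjusted p of 0.0283. It was the 1 gene called of 9 tested in fructose and polyol metabolism, whose median was -0.02. HK1, another hexokinase of the list, had a higher mean under control siRNA, 47.5 against 15.8 FPKM for HK2. Its log2 fold change was -0.02 (adjusted p = 0.930 without the block, edgeR), and it is named after its values were seen. SLC2A1, a glucose transporter, and ALDOA, an aldolase, had the highest FPKM of that list. Their log2 fold changes were 0.20 and 0.15, with adjusted p of 0.331 and 0.271 without the block and 8.03e-05 and 0.00111 with it (edgeR). SLC2A5, the fructose transporter, was under the filter.

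Triose phosphate enzymes, which make or use the precursors of methylglyoxal, numbered 7, of which edgeR without the block, DESeq2 and limma called 0, and 0 had an unadjusted p under 0.05. Their median log2 fold change was 0.10. With the block 4 of the 7 were called as higher, beside 11.4% of all tested genes, GPI, GAPDH, PGK1 and PFKL, of which PGK1 and PFKL are named after their values were seen. GAPDH, at a mean of 1154 FPKM under control siRNA, had a log2 fold change of 0.10 (adjusted p = 0.439 without and 0.00914 with the block, edgeR). For GPI it was 0.16 (adjusted p = 0.372 without and 0.00208 with the block, edgeR). TPI1, which interconverts the triose phosphates, had 0.08 (adjusted p = 0.554 without the block, edgeR).

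Glutathione, which GLO1 needs for its substrate, was represented by 10 listed genes of its supply, its turnover and the thioredoxin system, all tested. In edgeR without the block, DESeq2 and limma 0 were called, 2 had an unadjusted p under 0.05 in edgeR, and the median was 0.06. SLC7A11, the cystine importer, was at 8.19, 5.96 and 5.12 FPKM under control siRNA and at 4.36, 3.79 and 2.53 FPKM under INO80 siRNA. The groups did not overlap, and replicate 1 was the highest of each. Its log2 fold change of -0.86 had an adjusted p of 0.114 without the block and 5.86e-11 with it (edgeR). GCLM and GCLC, the subunits of glutamate-cysteine ligase, had log2 fold changes of 0.16 and 0.17, with adjusted p of 0.258 and 0.408 without and 0.00466 and 0.0379 with the block (edgeR). GSR was also called as lower and CHAC1, which breaks glutathione down, as higher with the block. Both are named after their values were seen. TXN and TXNRD1, thioredoxin and its reductase, had the highest FPKM of the list and adjusted p of 0.730 and 0.912 (edgeR).

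HMOX1, heme oxygenase 1, was the 1 gene called of 6 tested in the NRF2 list, whose median was 0.09. It fell from 37.13, 44.79 and 36.04 FPKM to 26.22, 30.06 and 27.95 FPKM, without overlap, and edgeR gave it -0.50 ± 0.0878 (log2, standard error) with an adjusted p of 0.0377. NQO1, a quinone reductase, and MAFG, a small MAF protein, had log2 fold changes of 0.15 and 0.18, with adjusted p of 0.750 and 0.178 without and 0.00426 and 0.00341 with the block (edgeR). MAFG overlaps SIRT7 on the same strand.

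Among 25 other aldehyde and carbonyl enzymes 17 were tested, with a median log2 fold change of -0.06. In edgeR without the block, DESeq2 and limma 0 were called, and 3 had an unadjusted p under 0.05 in edgeR. ALDH1B1, a mitochondrial aldehyde dehydrogenase, was at 41.24, 32.10 and 33.26 FPKM under control siRNA and at 31.58, 23.39 and 23.86 FPKM under INO80 siRNA. It was lower at each replicate number. The groups did not overlap in FPKM, and they overlapped in TMM-scaled CPM, where INO80 siRNA replicate 1 was at 99.6 and control siRNA replicate 2 at 97.8 CPM. Its log2 fold change was -0.44 (adjusted p = 0.195 without and 1.57e-08 with the block, edgeR). ESD, which hydrolyses S-formylglutathione, and PTGR1, a reductase of unsaturated carbonyls, had -0.20 and -0.22, with adjusted p of 0.178 and 0.186 without and 0.00278 and 0.00101 with the block (edgeR). With the block CBR1, a carbonyl reductase, was called as higher at a log2 fold change of 0.17 (adjusted p = 0.0149, edgeR), as was AKR1C3, named after its values were seen. ADH5, which acts on the glutathione adduct of formaldehyde, had -0.09 (adjusted p = 0.483 without the block, edgeR).

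Osmolyte genes, a group that shares the factor NFAT5 with AKR1B1, were listed with 6 members, of which 3 were tested. In edgeR with or without the block, in DESeq2 and in limma 0 were called, 0 had an unadjusted p under 0.05 without the block, and the median was 0.02. SLC6A6, the taurine transporter, and HSPA4L, a chaperone, had log2 fold changes of 0.02 and 0.02 (adjusted p = 0.948 and 0.915, edgeR).

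**Figure D4:**
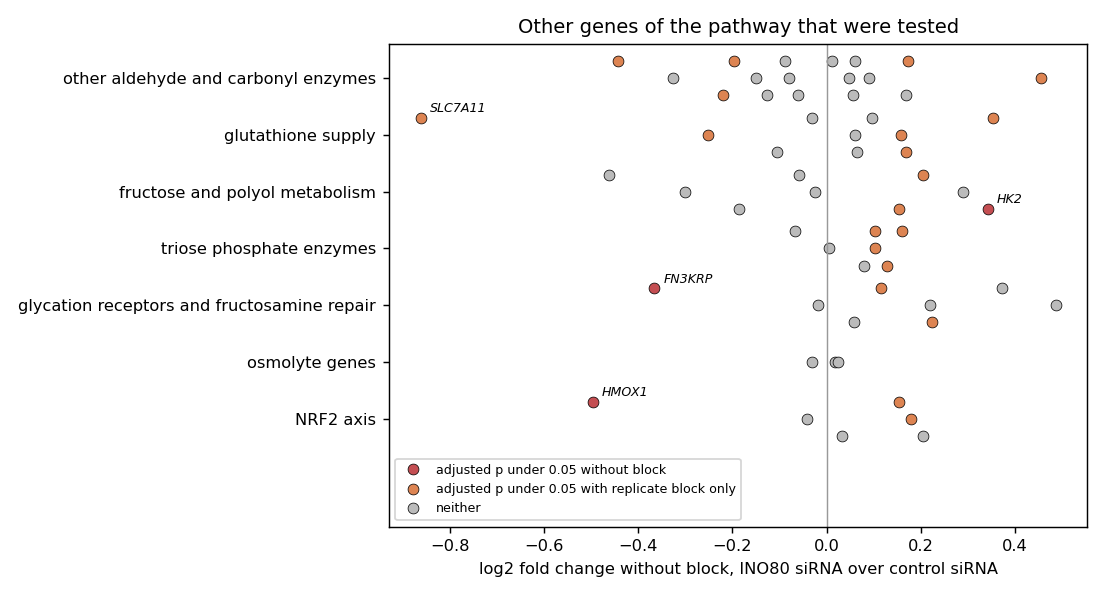
Log2 fold change without the block of the 60 tested pathway genes outside the set, by list, with 1 point per gene; vertical offsets only separate the points. Red points had an adjusted p under 0.05 without the block (HK2, FN3KRP and HMOX1), orange points only with it, and grey points in neither; SLC7A11 lies farthest to the left at -0.86.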

How the data were processed

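The authors deposited raw read counts by gene for every library, and FPKM values beside them. The submitters' processing notes name HISAT2 2.0.1, HTSeq and hg19, whereas the paper's methods name ELAND and hg38; the coordinates in the table are those of GRCh37. The deposited FPKM values all equalled the count divided by exonic length and library total, within 0.011.

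Counts were fitted with edgeR 4.0.16 (R 4.3.3) by its quasi-likelihood test after filterByExpr and TMM scaling, with treatment alone, and p-values were adjusted by Benjamini-Hochberg over the 15343 tested genes. An adjusted p under 0.05 was a call. Libraries of equal number deviated together from their group means (correlations across genes of 0.581, 0.365 and 0.360, against at most 0.152 for unequal numbers), so the numbers were taken to pair the samples, and a fit with a replicate block was the alternative. DESeq2 1.42.0, RLE size factors, no count filter, limma 3.58.1 on log2(FPKM + 0.1) or log2(FPKM + 1), and leaving out libraries were further alternatives. The fits were tested on simulated data. The simulated libraries had no effect of the replicate number, so they cannot decide between the fits with and without the block. Overlap of groups was read on TMM-scaled CPM, and the principal components were taken from log2(FPKM + 1).

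The members, lists and tests were chosen with earlier results of these data known. Genes were named by rule: the 8 enzymes, INO80, AKR1B15, SORD2P, the 5 genes most like GLO1, and in the pathway lists up to 15 called genes with the smallest p and the 2 highest of each list. Where a symbol was listed more than once, the row with the most reads was used. Promoters were from RefSeq (GRCh38.p14) and transcripts from GENCODE, aligned with Biopython 1.88.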

Additional observations from a re-analysis of the deposited data

How the results depend on the processing

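INO80 stayed past the threshold in all 15 alternative fits (log2 fold change -1.98 to -1.47). GLO1 was negative in all 15 (-0.52 to -0.42), and PARK7, AKR1A1, AKR1B10 and KHK were positive in all 15, while HAGH, AKR1B1 and SORD changed sign in 3, 2 and 2. Of the 8 enzymes 1 was called in the fit as reported, beside 1.75% of all tested genes, and 3 with the replicate block, beside 24.8%. Without the count filter it was 2, beside 2.43% of 29137 genes. These include genes under the filter, so that share is not over the same genes as the others. With limma it was 0 at either pseudocount, beside 0.495% and 0.521%. Without 1 library the count ranged from 0 to 1, beside 0.115% to 0.932%. With the replicate block and without 1 replicate number it ranged from 2 to 4, beside 14.6% to 25.4%. These shares are also the background for the 60 wider pathway genes in the same fits. AKR1A1 was not called in the block fits without replicate 2 or 3, and AKR1B1 was called in that without replicate 1. The median of the 8, 0.04, ranged from 0.011 without INO80 siRNA replicate 1 to 0.10 without INO80 siRNA replicate 2. Of the 60 wider pathway genes 3 were called as reported, 23 with the replicate block, 5 without the count filter, 0 with limma at either pseudocount, and 0 with a log2 fold change of at least 1. Without 1 library 0 were called, and with the replicate block it was 26, 19 and 15 without replicate 1, 2 and 3. Among the 5 genes most like GLO1, FOXJ3, GTF2H3 and TRIM27 were called only with the replicate block, which changed no other call beyond these and those given in the report. With the antioxidant response element core followed by A, 0 promoters matched in place of 1. Protein identity was planned and not run; coding identity and the AP-1 site were added after seeing the data. Fits without a library hold fewer samples; the other causes were not tested. Depth limits AKR1B10 (16 to 194 reads) and KHK (56 to 94 reads).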

Other observations

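Genes near GLO1 on chromosome 6 were examined after its values had been seen. Within 500000 bases on either side 4 other genes were tested, SAYSD1, KCNK5, BTBD9 and ANKRD18EP, and 0 were called with or without the replicate block (edgeR), 0 of them at an unadjusted p under 0.05. Their log2 fold changes were 0.14, 0.18, 0.05 and -0.15, with adjusted p of 0.660, 0.632, 0.835 and 0.694 (edgeR). With the replicate block the adjusted p of the 4 was 0.369, 0.382, 0.728 and 0.549 (edgeR).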
